A study of Mus musculus with 26 samples.

Results

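Collagens are the structural proteins of the extracellular matrix, and 35 of the 16322 genes measured in whole pancreatic tumours of KPC mice belonged to the family. Members were defined by name, as genes whose GENCODE M21 symbol is Col, a number, a and a number. This choice was made with earlier results of these data known. The GENCODE M21 annotation holds 44 such genes. The other 9 (Col2a1, Col4a4, Col4a5, Col4a6, Col9a1, Col9a2, Col19a1, Col22a1 and Col26a1) were not analysed here. The measured members were 10 fibrillar collagens, 3 chains of the basement membrane collagen IV, 6 chains of collagen VI and 16 of other classes. KPC is a mouse model of pancreatic ductal adenocarcinoma in which Cre acts in pancreatic cells. Whole tumours were frozen and sequenced as 7 libraries labelled vehicle control and 5 labelled as treated with GS9820, an inhibitor of the p110δ subunit of phosphoinositide 3-kinase. Treated tumours carry a label of 14 days after treatment, and vehicle tumours carry no day. All 12 were of the KPC strain, so controls carry the same alleles, and no age or sex is used here. The labels also do not say whether each library came from its own mouse, so p-values measure only the spread between these samples, which may be technical.

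Collagen chains form triple helices. Fibrillar collagens, above all types I and III, build the fibres of connective tissue, collagen IV forms the sheet-like network under epithelium and endothelium, and collagen VI forms beaded filaments around cells. Pancreatic carcinoma is known for a dense stroma in which fibroblasts and stellate cells deposit fibrillar collagen, while collagen IV is also made by endothelial and epithelial cells.

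Of the 35 members, Col6a5 was higher in treated tumours past the test used here, and its neighbour Col6a6 stood just outside it. Col4a1 and Col4a2 varied together almost without scatter. Their RefSeq start sites lie 21 bases apart on opposite strands of chromosome 8, so their promoter windows (250 bases before to 50 after the start, GRCm38.p6) share 78 bases. The windows of these 4 genes are shown because these pairs carry the main patterns. They lie at chr8:11312777-11313076 (minus strand) for Col4a1, chr8:11312555-11312854 (plus) for Col4a2, chr9:105960594-105960893 (minus) for Col6a5 and chr9:105828036-105828335 (minus) for Col6a6. Capitals mark the CCAAT motif, the GC box (GGGCGG) and the TATA box (TATAAA), each on either strand.
Col4a1: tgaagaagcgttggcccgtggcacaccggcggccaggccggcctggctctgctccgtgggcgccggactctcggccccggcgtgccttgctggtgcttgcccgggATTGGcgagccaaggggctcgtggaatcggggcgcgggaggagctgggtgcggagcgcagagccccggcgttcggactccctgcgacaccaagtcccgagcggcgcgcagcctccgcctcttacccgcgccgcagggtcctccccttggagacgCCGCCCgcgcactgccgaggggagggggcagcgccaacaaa
Col4a2: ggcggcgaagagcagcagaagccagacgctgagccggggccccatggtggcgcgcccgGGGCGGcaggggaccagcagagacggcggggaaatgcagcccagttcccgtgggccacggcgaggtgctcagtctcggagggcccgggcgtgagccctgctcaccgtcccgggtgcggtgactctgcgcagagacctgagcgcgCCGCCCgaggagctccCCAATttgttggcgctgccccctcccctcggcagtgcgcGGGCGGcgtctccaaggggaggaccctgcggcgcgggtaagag
Col6a5: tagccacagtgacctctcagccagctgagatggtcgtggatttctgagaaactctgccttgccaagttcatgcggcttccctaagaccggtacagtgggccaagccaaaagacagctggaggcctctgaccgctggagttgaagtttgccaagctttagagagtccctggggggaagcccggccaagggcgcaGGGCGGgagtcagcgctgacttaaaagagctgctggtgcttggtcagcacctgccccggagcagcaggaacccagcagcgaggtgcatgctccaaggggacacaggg
Col6a6: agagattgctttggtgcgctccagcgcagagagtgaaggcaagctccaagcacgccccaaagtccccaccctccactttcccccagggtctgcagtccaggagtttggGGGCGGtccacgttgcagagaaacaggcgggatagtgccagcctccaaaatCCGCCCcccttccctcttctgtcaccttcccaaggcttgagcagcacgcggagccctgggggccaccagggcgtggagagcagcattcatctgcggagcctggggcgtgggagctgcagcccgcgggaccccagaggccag

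The Col4a1 and Col4a2 windows held 74.0% and 73.7% G or C, and each held 1 CCAAT. Those of Col6a5 and Col6a6 held 60% and 65% and no CCAAT. The GC box was present 1, 3, 1 and 2 times in the order printed, and the TATA box in 0 of the 4. Over all 32851 RefSeq windows of this length, 37.4% held CCAAT, 35.7% the GC box and 13.6% the TATA box. Of the 31 windows available for 29 of the 35 members, 11 held CCAAT, 20 the GC box and 5 the TATA box. The windows of the other 6 members were not used here.

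Values are the authors' log2 expression values, called log2 values here, and a difference of 1 is a doubling. Each difference is treated minus vehicle, with SE for its standard error, and SD is the standard deviation of a group. The libraries shared nearly 1 distribution of values, so depth per library is unknown. Correlations between libraries over all genes ran from 0.63 to 0.95. The 12 ductal and carcinoma epithelium markers, all measured, averaged 5.25 in vehicle tumour 1 and 7.46 to 9.34 in the other 11. Hepatocyte markers (6 of 10 measured) averaged 11.81 in treated tumour 3, 6.81 in treated tumour 1 and 6.76 in vehicle tumour 4, against 0.71 to 3.89 in the other 9. In treated tumour 1 this mean was carried by Apoa1 (12.29) and Apob (11.84), with Alb at 4.67 and Ahsg at 2.03. Treated tumour 3 had Alb at 13.29 and Ahsg at 11.79.

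Fibrillar genes led the family. Col3a1 (reticular fibres) had the highest mean over the 12 tumours at 11.65, followed by Col1a1 and Col1a2, the chains of type I collagen, at 11.14 and 10.93. Col4a1 (10.18) and Col4a2 (9.31) came next. The spread between tumours was 0.76 to 1.06 (SD) for these 5 genes. They were measured in the same tumours, so this spread does not show how firm their order is. Within a tumour, Col1a1 minus Col3a1 ran from -0.88 to 0.10 and Col1a1 minus Col1a2 from -0.74 to 1.06. Col4a1 minus Col4a2 ran from 0.68 to 1.29, above 0 in every tumour. All 5 genes lay above 98.5% of the genes in the tumours. The authors name the values per kilobase, but the mean over protein-coding genes rose by 0.22 for each doubling of exon length, so it could not be settled whether length had been taken out. Subtracting the log2 of the exon length in kilobases put Col1a1 ahead of Col3a1, and left Col1a2, Col4a1 and Col4a2 behind them in that order. At the low end, Col25a1 (0.52), Col4a3 (0.66), Col6a4 (0.71) and Col17a1 (0.88) lay at or under 2.02% of genes in rank. All 35 members passed the filter on low values, which kept genes at 0 or above on the log2 scale in 5 or more tumours.

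**Figure D1:**
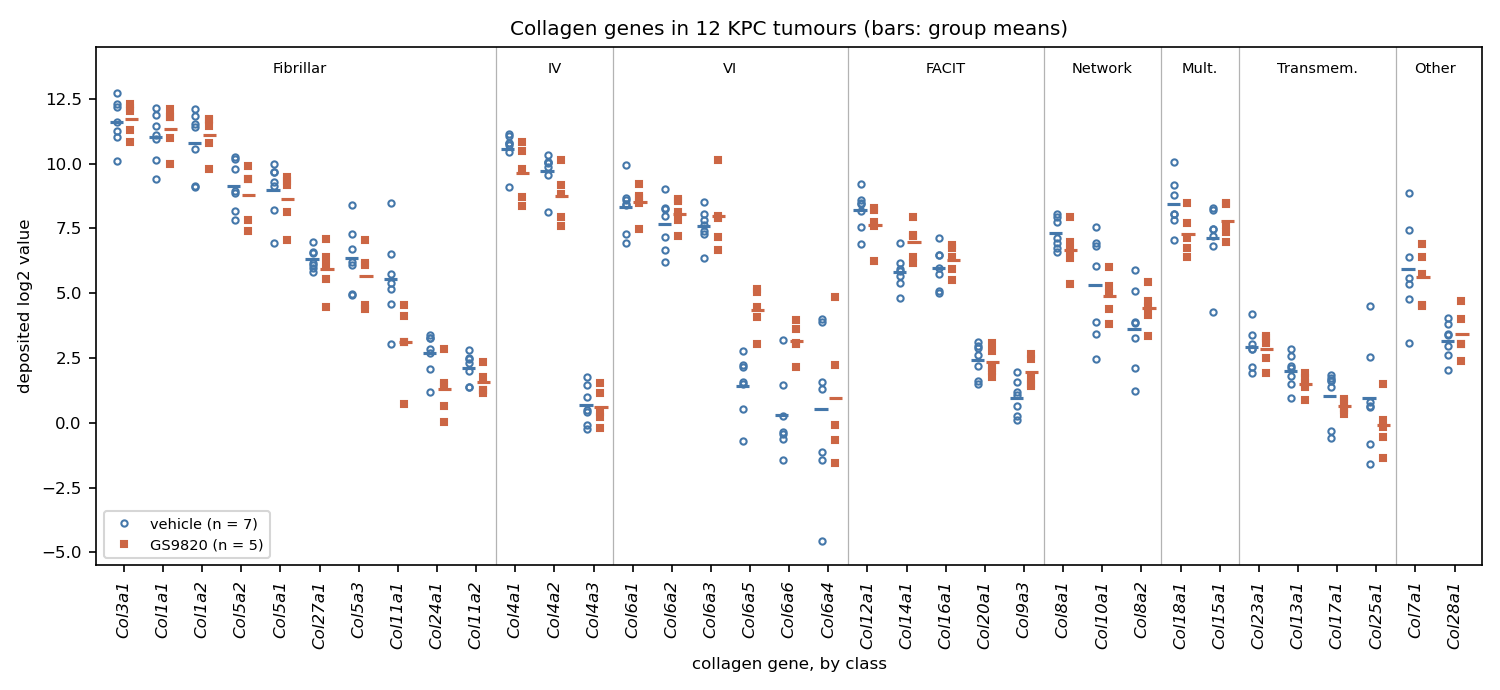
Deposited log2 values (y axis) of the 35 collagen genes (x axis, by class and mean level) in 7 vehicle tumours (open circles) and 5 GS9820 tumours (squares), with group means as bars. Mult. and Transmem. stand for multiplexins and transmembrane collagens; Col6a5 is the gene whose treated tumours all lie above the vehicle tumours, at 3.06 to 5.17 against -0.69 to 2.76.

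Tumours differed in collagen as a whole within each group. Turned back to linear values, the 35 genes summed to 0.322% of all values in vehicle tumour 5 and 0.363% in treated tumour 1, the lowest of the 12, and to 1.51% in vehicle tumour 7, the highest. Vehicle tumour 5 and treated tumour 1 had 8 and 7 of 35 members above the member's own mean over the 12, while vehicle tumour 6 had 28. Fibrillar genes made up 44.8% to 76.8% of the collagen sum in vehicle and 67.9% to 77.0% in treated tumours. Collagen IV made up 12.2% to 23.2% and 7.25% to 15.2%, and collagen VI 2.79% to 14.3% and 6.46% to 9.81%. These shares overlapped between the groups in all 3 classes and carry no test.

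The comparison of treated with vehicle tumours addressed what p110δ inhibition changes in the tumour. It was tested with limma over all 16296 genes that passed the filter, with Benjamini-Hochberg adjustment over all of them and a threshold of 0.05. This test called 1 of 35 collagen genes (2.86%), and it called 2.2% of all genes tested, so the members' share was near the background. Without adjustment 7 members (20%) had a p under 0.05, against 24.4% of all genes. The members had a median difference of -0.09, with 15 above and 20 below 0, and all genes tested had a median of -0.06. Groups did not overlap for 1 member (2.86%), against 2.81% of all genes. That member lay above in treated tumours (0.951% of all genes did), and 0 members lay below (1.86% of all genes did). In whole tumours, fewer cells of a type and less RNA per cell cannot be told apart.

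**Figure D2:**
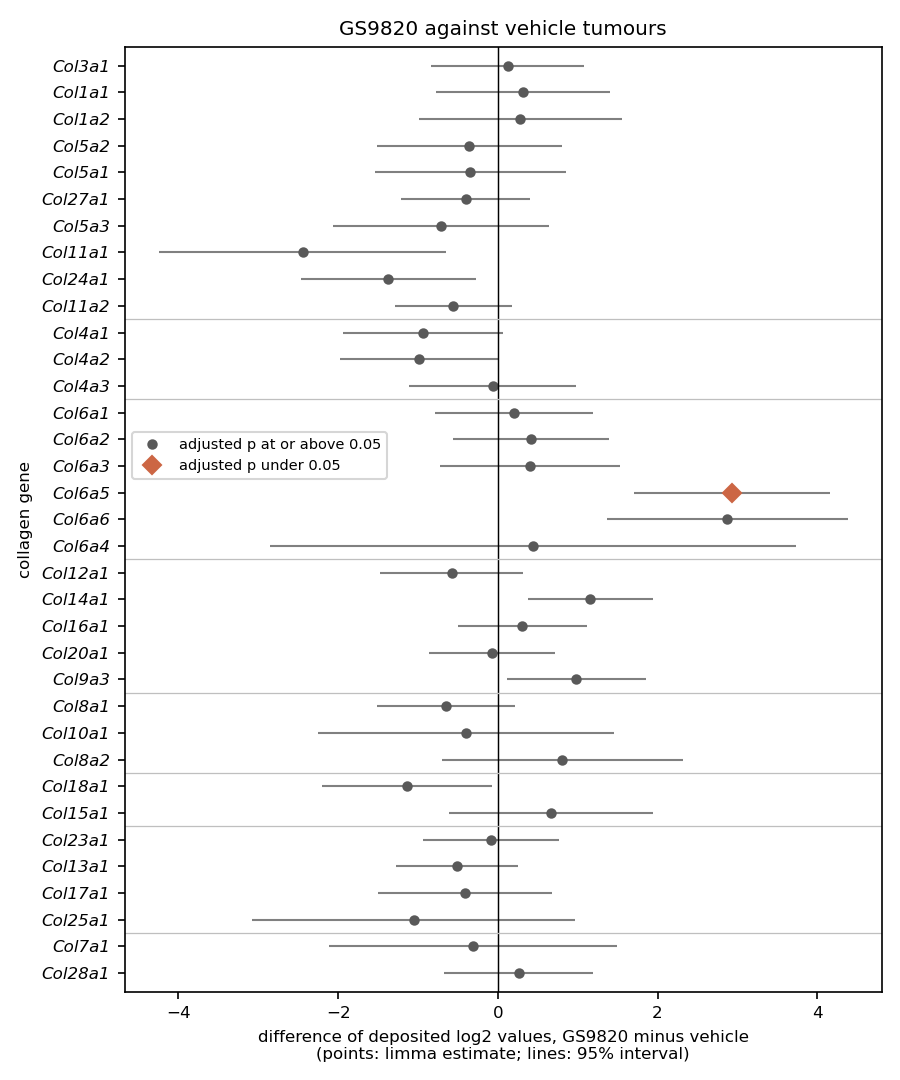
Difference of log2 values, GS9820 minus vehicle (x axis), for each collagen gene (y axis, in the order of the plot of levels, with lines between classes); points are limma estimates over 7 vehicle and 5 GS9820 tumours and lines their 95% intervals. Col6a5, the diamond at 2.93, is the member past an adjusted p of 0.05, and Col11a1 lies farthest to the left at -2.44.

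Type I and type III genes showed no change that passed. Col1a1 (ENSMUSG00000001506, chromosome 11, 94936224 to 94953042) ran from 9.39 to 12.15 in vehicle tumours, with a median of 11.10, and stood at 9.97, 11.79, 12.11, 10.98 and 11.79 in treated tumours 1 to 5. The groups overlapped over nearly their whole range. Its difference was 0.32 ± 0.50 (SE; limma, adjusted p = 0.725), with a 95% interval of -0.77 to 1.41. Col1a2 differed by 0.28 ± 0.59 and Col3a1 by 0.12 ± 0.44, with intervals of -0.99 to 1.55 and -0.83 to 1.08. With the fibroblast and stellate cell marker mean of each tumour in the fit, an alternative chosen after seeing the data, the differences of Col1a1, Col1a2 and Col3a1 were -0.93, -1.18 and -0.89, and none passed. Type V collagen starts and limits fibril growth. Its chains Col5a1 (-0.35 ± 0.55), Col5a2 (-0.36 ± 0.54) and Col5a3 (-0.72 ± 0.63) also did not pass.

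Lower differences among fibrillar genes stood at the minor chains. Col11a1, a cartilage collagen that activated fibroblasts of carcinomas also make, ran from 3.06 to 8.49 in vehicle tumours with a median of 5.40. In treated tumours 1 to 5 it stood at 0.72, 3.12, 4.55, 3.12 and 4.11. Vehicle tumour 1 was the highest and treated tumour 1 the lowest, and the groups overlapped between 3.06 and 4.55. The difference of -2.44 ± 0.83 did not pass (limma, adjusted p = 0.108). It was -1.96 without vehicle tumour 1 and -2.86 without vehicle tumour 5, where it passed (limma, adjusted p = 0.0355). Col24a1, a minor fibrillar collagen known from bone, ran from 1.20 to 3.40 in vehicle tumours, with a median of 2.85, and stood at 1.47, 1.54, 2.87, 0.02 and 0.65 in treated tumours. Its difference was -1.37 ± 0.51 (limma, adjusted p = 0.129). Col11a2 (-0.56 ± 0.34) and Col27a1 (-0.40 ± 0.37) had smaller negative values, so 7 of 10 fibrillar genes were below 0 and 0 passed (1.33% of all genes were called lower). Beside Col11a1, the cartilage and bone markers with a row, Runx2 and Acan (2 of 8), averaged 1.22 to 5.99 in vehicle and 0.20 to 3.46 in treated tumours. This mean did not follow Col11a1 in every tumour. Vehicle tumour 1, the highest for Col11a1, had a marker mean below the median of the vehicle tumours. Vehicle tumour 4 had the highest marker mean, with Col11a1 below its vehicle median. Treated tumour 1 was the lowest for both. The part of cartilage and bone cells in the Col11a1 values was not tested.

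Collagen IV had lower means in treated tumours without passing. Col4a1 (ENSMUSG00000031502, chromosome 8, 11198423 to 11312826), an obligate chain of most basement membranes, ran from 9.09 to 11.13 in vehicle tumours with a median of 10.79. In treated tumours 1 to 5 it stood at 8.38, 9.81, 10.82, 8.72 and 10.48. Vehicle tumour 5 was the low exception among the vehicle tumours, the other 6 lying at 10.44 or above, and treated tumours 3 and 5 reached their range. The difference was -0.93 ± 0.46 (limma, adjusted p = 0.235). Col4a2 differed by -0.98 ± 0.46 (limma, adjusted p = 0.21), with 95% intervals of -1.93 to 0.07 for Col4a1 and -1.97 to 0.01 for Col4a2. With the fibroblast marker mean in the fit the differences of Col4a1 and Col4a2 were -1.91 and -1.91, and with the acinar mean -0.54 and -0.58, and neither passed in either fit. Col4a3, a chain of kidney and lung basement membranes, was near the bottom of the tables in both groups (0.69 ± 0.76, SD, n = 7, and 0.63 ± 0.71, SD, n = 5).

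Relative to Col1a1, Col4a1 was lower in treated tumours. The 5 ratios were chosen with earlier results of these data known, so their p-values may describe a pattern already seen. How often the ratios of other pairs of genes separate the groups was not computed. The log2 ratio of Col4a1 to Col1a1 within a tumour ran from -1.09 to 0.64 in vehicle tumours with a median of -0.30. It was -1.59, -1.98, -1.30, -2.26 and -1.31 in treated tumours 1 to 5, so every treated tumour lay below every vehicle tumour. The mean fell from -0.44 ± 0.66 (SD, n = 7) to -1.69 ± 0.42 (SD, n = 5), a difference of -1.25 (exact two-sided permutation over 792 splits, p = 0.0051; adjusted p = 0.0189 over the 5 ratios examined). Leaving out any single tumour gave -1.36 to -1.07. Of the other ratios to Col1a1, that of Col3a1 differed by -0.19 (exact permutation p = 0.297) and that of Col1a2 by -0.04 (exact permutation p = 0.889). The ratio of Col5a1 differed by -0.66 (exact permutation p = 0.0442; adjusted p = 0.0737 over the 5), which does not pass after adjustment. Vehicle tumour 3 had the highest Col5a1 ratio, -0.48, and the difference was -0.41 without it.

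**Figure D3:**
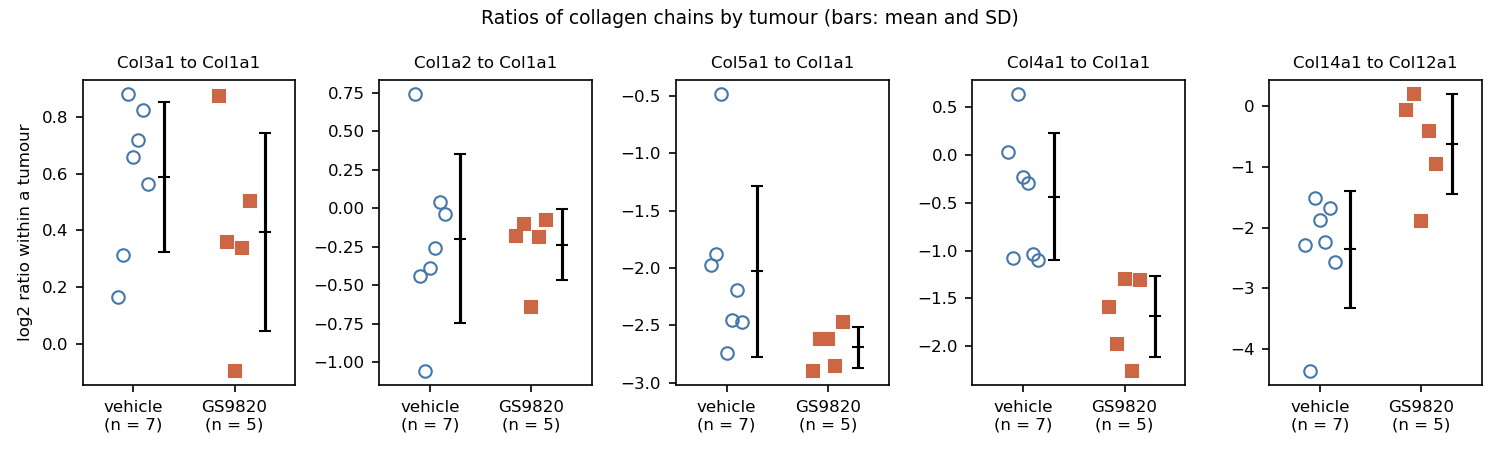
Log2 ratio of 2 collagen genes within each tumour (y axis, a scale of its own in each panel) for 5 pairs of genes, in 7 vehicle (open circles) and 5 GS9820 tumours (squares), with mean and SD as bars. The Col4a1 to Col1a1 panel shows no overlap of the groups, and in the Col14a1 to Col12a1 panel 1 treated tumour, at -1.89, lies within the vehicle range.

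The member past the threshold, Col6a5, belongs to collagen VI. Its Col6a1, Col6a2 and Col6a3 chains form the common heterotrimer, and the Col6a4, Col6a5 and Col6a6 chains, which resemble Col6a3, are thought to take its place in some tissues. Col6a5 (ENSMUSG00000091345, chromosome 9, 105856078 to 105960643) ran from -0.69 to 2.76 in vehicle tumours with a median of 1.56. In treated tumours 1 to 5 it stood at 5.17, 3.06, 5.03, 4.08 and 4.49. Every treated tumour lay above every vehicle tumour. Its mean rose from 1.43 ± 1.17 (SD, n = 7) to 4.37 ± 0.85 (SD, n = 5), a difference of 2.93 ± 0.57 (SE; limma, adjusted p = 0.0294). Even so the treated mean was far below that of Col6a1 (8.53 ± 0.64, SD, n = 5).

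The adjacent gene Col6a6 lies 27918 bases from Col6a5 on the same strand (chromosome 9, 105687809 to 105828160). In vehicle tumours it ran from -1.42 to 3.20 with a median of -0.37, and it stood at 3.06, 3.98, 2.16, 3.61 and 3.06 in treated tumours 1 to 5. Vehicle tumour 6, at 3.20, lay among the treated tumours. The difference of 2.87 ± 0.70 did not pass (limma, adjusted p = 0.053). Col6a4, 28811 bases beyond Col6a5 in the same cluster, ran from -4.54 to 4.00 in vehicle tumours and stood at 4.87, -1.54, -0.09, 2.24 and -0.65 in treated tumours. It differed by 0.44 ± 1.52, the widest error of the family.

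Leaving out any single tumour gave a Col6a5 difference of 2.58 to 3.26. The call was lost when vehicle tumour 4 was left out (limma, adjusted p = 0.0599), and likewise for the treated tumours numbered 2 (0.0523), 4 (0.0779) and 5 (0.0629). The difference was 2.78 without vehicle tumour 1 (limma, adjusted p = 0.0494). The call was also lost without the 3 tumours of highest hepatocyte marker mean (2.45; limma, adjusted p = 0.122). Marker levels of several cell types are given beside Col6a5. The mean of 15 fibroblast and stellate cell markers (15 of 15 measured) was 4.16 to 5.55 in vehicle and 5.08 to 6.15 in treated tumours. That of 15 acinar markers was 2.60 to 9.78 and 5.70 to 10.14, and that of 5 of 7 adipocyte markers -1.78 to 2.52 and -1.59 to 6.57. The adipocyte mean was highest in treated tumours 1 (6.57) and 3 (5.26). There Pck1 stood at 8.56 and 10.66, Car3 at 7.74 and 6.61 and Cidec at 6.55 and 3.06. Adipoq stood at 5.22 and 3.91, and Plin1 at 4.79 and 2.06. Islet markers (9 of 9) were at -0.17 to 7.21 in vehicle and 5.86 to 9.17 in treated tumours. Mesothelial markers (4 of 5) were at 2.09 to 4.05 and 3.08 to 5.01. This mesothelial mean mixed directions. Upk3b (2.47), Lrrn4 (1.84) and Wt1 (1.46) had positive differences, and Msln, the member of highest level, a negative one (-2.19). With the fibroblast mean in the fit the Col6a5 difference was 3.06 (limma, adjusted p = 0.11), and with the acinar mean 3.14 (limma, adjusted p = 0.0878). Genes past the threshold, all higher, were 1 of 15 fibroblast (Clec3b), 1 of 15 acinar (Nr5a2), 2 of 12 endothelial (Kdr and Egfl7) and 4 of 9 islet markers (Chga, Chgb, Pyy and Ppy). Over all genes 0.878% were called higher. The calls were 0 of 5 adipocyte, 0 of 4 mesothelial, 0 of 6 hepatocyte and 0 of 7 lymphocyte markers. They were also 0 of 12 ductal and carcinoma epithelium markers and 0 of 11 pericyte and smooth muscle markers. Leaving out any of 4 single tumours ended the call of Nr5a2, any of 7 that of Chga, any of 8 those of Chgb and Pyy, and any of 9 that of Ppy. The part of adipocyte, islet and mesothelial cells in the Col6a5 values was not tested.

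None of the 3 common chains passed. Col6a1 ran from 6.95 to 9.93 in vehicle and 7.49 to 9.22 in treated tumours (0.20 ± 0.46). Col6a2 (0.42 ± 0.45) and Col6a3 (0.40 ± 0.52) had intervals from below to above 0 as well. All 6 collagen VI genes had a difference above 0, and 1 of 6 rose (0.878% of all genes were called higher). With the fibroblast marker mean in the fit, Col6a1, Col6a2 and Col6a3 stood at -0.56, -0.40 and -0.60. Treated tumour 3 had the highest Col6a3 value, 10.16, against 6.36 to 8.53 in the other tumours.

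Among collagens that sit on fibril surfaces with interrupted triple helices (FACIT), Col14a1 and Col12a1 had differences of opposite sign. Col14a1 (ENSMUSG00000022371, chromosome 15, 55307750 to 55520803), which binds decorin on fibrils, ran from 4.84 to 6.93 in vehicle tumours with a median of 5.86 and stood at 6.17, 7.95, 6.38, 7.19 and 7.26 in treated tumours. Treated tumours 2, 4 and 5 lay above every vehicle tumour. The difference of 1.16 ± 0.36 did not pass (limma, adjusted p = 0.0898). Col12a1, which is made under mechanical load and in wounds, differed by -0.58 ± 0.41 (limma, adjusted p = 0.408). Their log2 ratio ran from -4.36 to -1.52 in vehicle tumours with a median of -2.23, and was -0.07, 0.20, -1.89, -0.41 and -0.95 in treated tumours 1 to 5. The treated tumour within the vehicle range was number 3. This ratio, too, was chosen with earlier results of these data known. The mean ratio rose from -2.36 ± 0.96 (SD, n = 7) to -0.62 ± 0.83 (SD, n = 5), by 1.74 (exact two-sided permutation p = 0.0076; adjusted p = 0.0189 over the 5 ratios), and by 1.40 to 2.05 without any single tumour. The remaining members with FACIT structure were Col16a1 (0.31 ± 0.37), Col20a1 (-0.07 ± 0.37) and the cartilage chain Col9a3 (0.98 ± 0.40; limma, adjusted p = 0.162), and 0 of 5 passed.

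The multiplexins are basement membrane collagens that carry sugar chains. Col18a1, whose end is released as endostatin, ran from 7.05 to 10.08 in vehicle tumours with a median of 8.06, and stood at 6.39, 7.14, 8.50, 6.76 and 7.71 in treated tumours. Numbers 2, 3 and 5 of these lay within the vehicle range. The difference was -1.14 ± 0.49 (limma, adjusted p = 0.179). Col15a1, found beside vessels and muscle, differed by 0.66 ± 0.59, with vehicle tumour 1 at 4.28 and the other 11 tumours at 6.83 to 8.47. Endothelial markers (12 of 12 measured) averaged 4.26 to 5.19 in vehicle and 4.65 to 5.56 in treated tumours. Kdr (1.06 ± 0.23) and Egfl7 (1.02 ± 0.22) rose (limma, adjusted p = 0.0358 and 0.0376), and 10 of 12 endothelial differences were above 0. Leaving out any of 9 single tumours ended the call of Kdr, and likewise 9 that of Egfl7. Their part in these values was not tested.

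No gene of the remaining classes passed. Network-forming Col8a1 (-0.65 ± 0.40), Col8a2 (0.81 ± 0.70) and Col10a1 (-0.40 ± 0.86), the last a product of hypertrophic cartilage, did not pass. Col10a1 ranged from 2.45 to 7.57 among vehicle tumours, while treated tumours stood at 3.83 to 6.03. The transmembrane collagens were low, with group means of -0.09 to 2.92, and all 4 had negative differences: Col25a1 (-1.06 ± 0.94), Col13a1 (-0.51 ± 0.35), the hemidesmosome component Col17a1 (-0.41 ± 0.50) and Col23a1 (-0.09 ± 0.39). Col7a1, the anchoring fibril of epithelium, ranged from 3.07 to 8.87 in vehicle tumours and differed by -0.31 ± 0.83. Col28a1 differed by 0.26 ± 0.43.

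Partner chains of 1 molecule or fibril varied together across tumours in 5 of 6 pairs examined. The p-values test r against 0. Pairs of other genes were not examined, so it is not known whether partner chains differ from them. Col4a1 and Col4a2 had Pearson r = 0.99 and Spearman rho = 0.98 over 12 tumours (permutation p = 1e-05 each, the smallest that 100000 permutations give; adjusted p = 3e-05 and 6e-05 over the 6 pairs). Col4a1 exceeded Col4a2 by 0.68 to 1.29 in every tumour. Without the 2 tumours farthest from the median of Col4a1 r was 0.97, and it was 0.98 with the group means removed. For Col1a1 with Col3a1 r was 0.95 (rho 0.85; permutation p = 1e-05 and 0.00071, adjusted 3e-05 and 0.00142), for Col1a1 with Col1a2 0.92 (rho 0.77; permutation p = 0.0001 and 0.0051, adjusted 0.00015 and 0.00612). For Col6a1 with Col6a2 it was 0.91 (rho 0.91; permutation p = 5e-05 and 0.00013, adjusted 0.0001 and 0.00039). These 3 kept r of 0.85 to 0.88 without the 2 farthest tumours. Col5a1 with Col5a2 had r = 0.81 (rho 0.80; permutation p = 0.00115 and 0.00276, adjusted 0.00138 and 0.00414), and 0.66 without the 2 farthest. Col8a1 and Col8a2 had r = 0.34 (rho 0.45; permutation p = 0.274 and 0.14, unchanged by adjustment), which does not pass. Tumours of low total collagen (vehicle 5 and treated 1) were among the 3 lowest for each of Col1a1, Col1a2, Col3a1, Col5a1 and Col5a2. These genes are part of that total, so this is not a separate result.

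**Figure D4:**
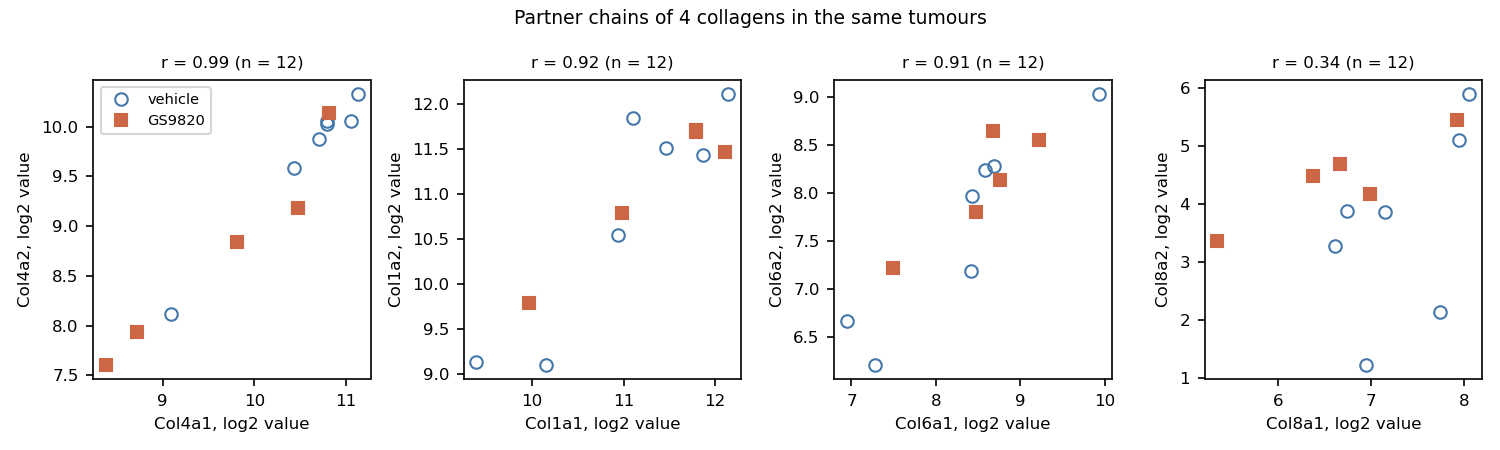
Log2 values of 2 partner chains in the same tumour (x and y axes), for collagens IV, I, VI and VIII, in 7 vehicle (open circles) and 5 GS9820 tumours (squares), with Pearson r over the 12 above each panel. Points of Col4a1 and Col4a2 lie on a narrow line (r = 0.99), and those of Col8a1 and Col8a2 are scattered (r = 0.34).

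Genes that make, bind or break down collagen came from lists chosen for this family. Of 18 genes for chain hydroxylation, folding and glycosylation, 1 fell (1.33% of all genes were called lower) and 16 of 18 differences were below 0 (median -0.48), as were 8913 of the 16296 over all genes. P4ha1, the catalytic subunit of prolyl 4-hydroxylase that stabilises the helix, ran from 6.05 to 7.46 in vehicle tumours and stood at 4.38, 5.47, 6.02, 4.80 and 5.56 in treated tumours. Every treated tumour lay below every vehicle tumour. P4ha1 fell by 1.45 ± 0.31 on the log2 scale (limma, adjusted p = 0.0364). Its paralogues P4ha2 (-1.27 ± 0.41; limma, adjusted p = 0.0976) and P4ha3 (-1.23 ± 0.49) did not pass, and neither did Serpinh1, the collagen chaperone (-0.58 ± 0.54). Among 11 measured genes of procollagen export and propeptide removal 0 passed, with the export receptor Mia3 at 0.35 ± 0.15 and its partner Mia2 at 0.41 ± 0.23. Cross-linking genes (6 of 6 measured) had 0 past the threshold, with Loxl4 at -0.89 ± 0.28 and Loxl3 at -1.09 ± 0.52.

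Of proteins that coat fibrils, 4 of 15 measured rose and 0 fell, where 0.878% of all genes were called higher and 1.33% lower. Tnxb (3.68 ± 0.55), a tenascin that links fibrils, and Ogn (1.94 ± 0.33), a small leucine-rich proteoglycan, rose (limma, adjusted p = 0.0181 and 0.0189). Dpt (1.99 ± 0.44) and Dcn (1.61 ± 0.33), dermatopontin and decorin, rose too (limma, adjusted p = 0.04 and 0.0339). The treated tumours of Tnxb, Ogn and Dpt all lay above the vehicle tumours, and those of Dcn overlapped them. Among receptors (9 of 10 measured), the shared integrin chain Itgb1 fell by 1.23 ± 0.29 (limma, adjusted p = 0.045), from 10.08 ± 0.49 (SD, n = 7) to 8.86 ± 0.52 (SD, n = 5). None of 16 basement membrane partners passed, and Nid2 (-0.62 ± 0.24) and Lama2 (0.89 ± 0.36) had the smallest p. Collagen breakdown (0 of 9; Mmp8 at -1.98 ± 0.63, Mmp14 at -0.83 ± 0.41) and TGF-beta input (0 of 17; Tgfbr3 at 1.24 ± 0.43) had no call either. These calls depended on single tumours. Without treated tumour 4, 0 of 16270 genes passed in limma. Of the 12 tumours, leaving out any of 10 ended the call of Itgb1, any of 9 that of P4ha1, any of 7 that of Dcn and any of 6 that of Dpt. For Ogn it was 2 (treated tumours 2 and 4), and for Tnxb 1 (treated tumour 4). Among fibroblast markers Clec3b rose by 2.87 ± 0.61 (limma, adjusted p = 0.0351; lost without any of 9 single tumours), while Pdgfra stood at 0.76 ± 0.61 and Pdgfrb at -0.05 ± 0.38. Pi16 (2.37 ± 0.63; limma, adjusted p = 0.0614) and Dpep1 (2.32 ± 0.65; limma, adjusted p = 0.0722) did not pass. Of the 15 markers, 12 differences were above 0 and 3 below. Without adjustment 5 had a limma p under 0.05, a level that 24.4% of all genes reached.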

How the data were processed

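Deposited log2 expression values of 12 tumour libraries were used, named log2 RPKM per the file headers. Per the submitters' processing notes the authors used TopHat2, STAR and limma with mm10, and neither versions nor the role of each tool is given. Per the labels, total RNA was depleted of ribosomal RNA and libraries were stranded. Sorted values differed between libraries by at most 0.861, with a median of 0, so libraries had been brought to 1 distribution. Linear sums were 1552394 to 1552450 per library, counts could not be recovered and depth is unknown. The sex chromosomes and the sorted myeloid cells of the series were not used here.

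Symbols, positions and exon lengths came from GENCODE M21 (GRCm38), which matched 16039 of 16322 identifiers. Promoter windows came from RefSeq (GRCm38.p6). The 16296 genes at 0 or above on the log2 scale in 5 or more tumours were fitted with limma 3.58.1 in R 4.3.3 (lmFit, eBayes with trend, two-sided). Ratios were tested by exact permutation, and pairs by 100000 permutations. The pair Col4a3 with Col4a4 could not be computed. The fit was tested on simulated data. All members are named. Of each list of collagen partners the genes past the threshold are named, or otherwise the 2 of smallest p. P4ha2, P4ha3, Serpinh1, Pdgfra, Pdgfrb, Pi16, Dpep1 and the called cell type markers were named after their values were seen. One gene that the rule for partners names is not reported here. Members, lists, ratios and pairs were chosen with earlier results of these data known. Alternatives were other filters, log2 of the value plus 1, quantile normalization, median centring, other eBayes settings, library weights, a replicate block, marker covariates and leaving out tumours. Figures were drawn with matplotlib 3.10.9.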

Additional observations from a re-analysis of the deposited data

Results flagged for a closer look

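For each collagen gene and ratio, the highest and lowest tumour of each group was compared with the rest. In 6 of 80 groups of values 1 tumour stood apart, where chance gives about 1 in 20. Vehicle tumour 5 was low for Col4a1, at 9.09 with the next vehicle tumour at 10.44, and for Col4a2, at 8.12 with the next at 9.58. Vehicle tumour 1 was low for Col15a1, at 4.28 with the next at 6.83. In the log2 ratio of Col1a2 to Col1a1, treated tumour 3 stood at -0.64 and the next treated tumour at -0.19. Vehicle tumour 3 had a Col5a1 to Col1a1 ratio of -0.48, with the next vehicle tumour at -1.88. Vehicle tumour 2 had a Col14a1 to Col12a1 ratio of -4.36, with the next at -2.57.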

How the results depend on the processing

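The number of collagen genes past the threshold was 1, and 2 (Col6a5 and Col6a6, both higher) with log2 of the value plus 1, with eBayes without the trend, with the replicate block, and with tumours numbered 1 to 5 only. It was 5 with library quality weights, where Col14a1 joined the higher and Col11a1 and Col24a1 the lower genes. With the acinar or, chosen after seeing the data, the fibroblast marker mean as a covariate it was 0. Without the 3 tumours of highest hepatocyte marker mean, also chosen after seeing the data, the called gene was Col24a1 (-2.19; limma, adjusted p = 0.0378). Leaving out single tumours gave 0 to 3. The cause of these shifts was not tested. Over all genes the count was 359, 171 with the replicate block and 255 for the same 10 tumours without it, 2764 with weights, 0 with the acinar and 2 with the fibroblast covariate, and 0 to 1690 without single tumours.

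Over up to 26 alternatives, 17 of 35 members kept their sign and 18, none of them called, did not. With the fibroblast covariate the sign changed for Col1a1 (-0.93), Col1a2 (-1.18), Col3a1 (-0.89), Col6a1 (-0.56), Col6a2 (-0.40), Col6a3 (-0.60), Col8a2 (-0.31), Col16a1 (-0.49), Col28a1 (-0.37), Col4a3 (0.39), Col17a1 (0.42) and Col20a1 (0.40). It changed with weights for Col3a1 (-0.12) and Col7a1 (0.0046), and with the acinar covariate for Col4a3 (0.04). With the hepatocyte covariate it changed for Col7a1 (0.17) and Col4a3 (0.020). Without the 3 tumours of highest hepatocyte marker mean it changed for Col20a1 (0.0731) and Col6a3 (-0.088). With the replicate block, and with tumours numbered 1 to 5 only, it changed for Col5a2 (0.066), Col10a1 (0.055), Col20a1 (0.022) and Col23a1 (0.038). Leaving out single tumours moved the sign of Col1a2 (-0.0051 to 0.61), Col3a1 (-0.12 to 0.34), Col4a3 (-0.29 to 0.14), Col5a1 (-0.69 to 0.047), Col6a1 (-0.031 to 0.47), Col6a3 (-0.14 to 0.73), Col6a4 (-0.54 to 1.07), Col7a1 (-0.79 to 0.18), Col20a1 (-0.26 to 0.072), Col23a1 (-0.25 to 0.14) and Col28a1 (-0.056 to 0.52). Col6a5 kept its sign (2.45 to 3.35) and passed in 19 of 26, with adjusted p from 0.0114 to 0.122, and Col6a6 (2.02 to 3.68) in 8 of 26. The 26 are not separate checks. The libraries already shared 1 distribution, so quantile normalization and median centring could hardly move a result. Both, and the fit without the filter, gave Col6a5 the adjusted p of the main fit (limma, 0.0294). For Col6a5 the replicate block and the fit of tumours numbered 1 to 5 gave the same difference, 3.35. Same-numbered tumours had correlations of deviations from -0.18 to 0.26. Those of differently numbered tumours were not computed, so these values cannot settle whether the numbers pair the tumours. Under the replicate block the ratio of Col4a1 to Col1a1 differed by -1.50 and that of Col5a1 by -0.79 (exact permutation p = 0.0625, the smallest that 5 pairs allow), that of Col14a1 to Col12a1 by 1.83 (exact permutation p = 0.125), and that of Col1a2 to Col1a1 by 0.043, a change of sign. Leaving out single tumours gave -1.36 to -1.07, -0.78 to -0.41, 1.40 to 2.05 and -0.18 to 0.12 for these 4 in order, and -0.31 to -0.07 for Col3a1 to Col1a1. Log2 of the value plus 1 and quantile normalization changed no call of a ratio, and quantile normalization could hardly do so for the reason given above. Depth is unknown, so the precision of low genes such as Col6a5 cannot be given beyond the spread between tumours.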
